A study of Mus musculus with 24 samples.

Results

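The genes described here are 37 keratin, desmosome, tight junction and epithelial identity genes, taken by name from a list and found by symbol among the 56748 genes of the count table. All 37 were found once. They were grouped by role into simple epithelium keratins (Krt7, Krt8, Krt18 and Krt19), basal keratins (Krt5, Krt14, Krt15 and Krt17), suprabasal keratins (Krt4, Krt6a and Krt13), adhesion molecules (Cdh1 and Epcam), desmosome genes (Dsg2, Dsg3, Dsc2, Dsc3, Dsp, Pkp1, Pkp3, Jup and Perp), tight junction genes (Cldn1, Cldn3, Cldn4, Cldn6, Cldn7 and Ocln), splicing regulators (Esrp1 and Esrp2), epithelial transcription factors (Trp63, Grhl2, Grhl3, Ovol1 and Elf3) and other suprabasal genes (Sfn and Ly6d). The rule uses names only, not measured values, but the list was chosen with earlier results of these data known.

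RNA sequencing was carried out on the mesenchyme of first mandibular molar germs of ICR mouse embryos, in 24 libraries that form 8 groups of 3. Undivided germs were sampled at the cap (Cap-W) and the bell stage (Bell-W), germs divided with a fine needle gave a lingual and a buccal part, named Cap-L and Cap-B or, at the later stage, Bell-L and Bell-B, and cap stage parts were also kept in culture for 2 days (Cap-L+2D and Cap-B+2D). By the study's methods the embryos were at embryonic day 13 for the cap and 15 for the bell stage and came from 3 pregnant mice. No transgene and no treatment other than culture is named for these groups. The labels name mesenchymal cells, freed from the epithelium with dispase II, as the source of every library, whereas the series text calls the undivided samples whole tooth germs. The sources call the libraries triplicates, elsewhere speak of 2 biological replicates, and do not say whether the 3 of a group came from separate animals, so p-values measure the spread between these libraries, which may be technical.

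Keratins form the intermediate filaments of epithelial cells from pairs of a type I and a type II chain. Krt8 and Krt18 fill simple epithelia, Krt5 and Krt14 the basal layer of stratified epithelia, and Krt4 and Krt13 the suprabasal layers of the oral mucosa, while Krt6a and Krt17 are also known from activated and healing epithelium. E-cadherin (Cdh1) joins neighbouring epithelial cells, desmosomes anchor their keratin filaments to the membrane, and claudins with occludin seal the space between them. The early tooth germ consists of an enamel organ that buds from the stratified oral epithelium and of the mesenchyme around it, and most of these genes are known from epithelia rather than from mesenchyme.

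Counts per library totalled between 20581720 and 39266497, and a floor of 3 counts corresponded to between 0.0764 and 0.146 CPM, which are counts relative to the library's total. Levels are given as CPM normalized over all 24 libraries with TMM factors. Of the undivided bell libraries, replicate 3 stood apart: all 37 members were highest there among the 3 Bell-W libraries, by a median ratio of 3.51 over the mean of the other two (range 1.36 to 9.75 over the 36 members with a ratio). In Cap-W replicate 1 the share of the ribosomal RNA gene Rn18s-rs5 was 5.39% and that of mitochondrial genes 7.95%, against at most 1.43% and 4.05% in the other 23 libraries. Results that rest on Bell-W are therefore given with and without its replicate 3. In bulk samples such as these, fewer cells of a type and less RNA per cell cannot be told apart.

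The members were measured in every group, although all libraries are labelled as mesenchyme. Their summed level was 967 to 1032 CPM in Cap-L, 692 to 725 in Cap-B, 1768 to 1839 in Bell-L and 1157 to 1184 in Bell-B. It was 708 to 1083 CPM in Cap-W and 1076 to 4196 in Bell-W, where replicate 3 held the highest value and the other two lay at 1173 and 1076. After culture the sum was 992 to 1056 CPM in Cap-L+2D and 174 to 181 in Cap-B+2D, so the cultured buccal part had by far the lowest level. For 34 of the 37 members the lowest group mean was that of Cap-B+2D, and for 19 the highest was that of Bell-W, a number that was 1 without Bell-W replicate 3. Per kilobase of exon, the most abundant members in Cap-L were Krt14 at a mean of 78.2 CPM, Krt5 at 72.4 and Krt17 at 71.1, while Cdh1 stood at 5.46 and Krt8 at 1.52. The marker list of mesenchyme (Vim, Col1a1, Prrx1, Msx1 and others, 11 genes) summed to 6276 to 7309 CPM in Cap-W, the lowest, and to 22732 to 24541 in Cap-L+2D, the highest group, with no gene of the list at 0 in any group.

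**Figure D1:**
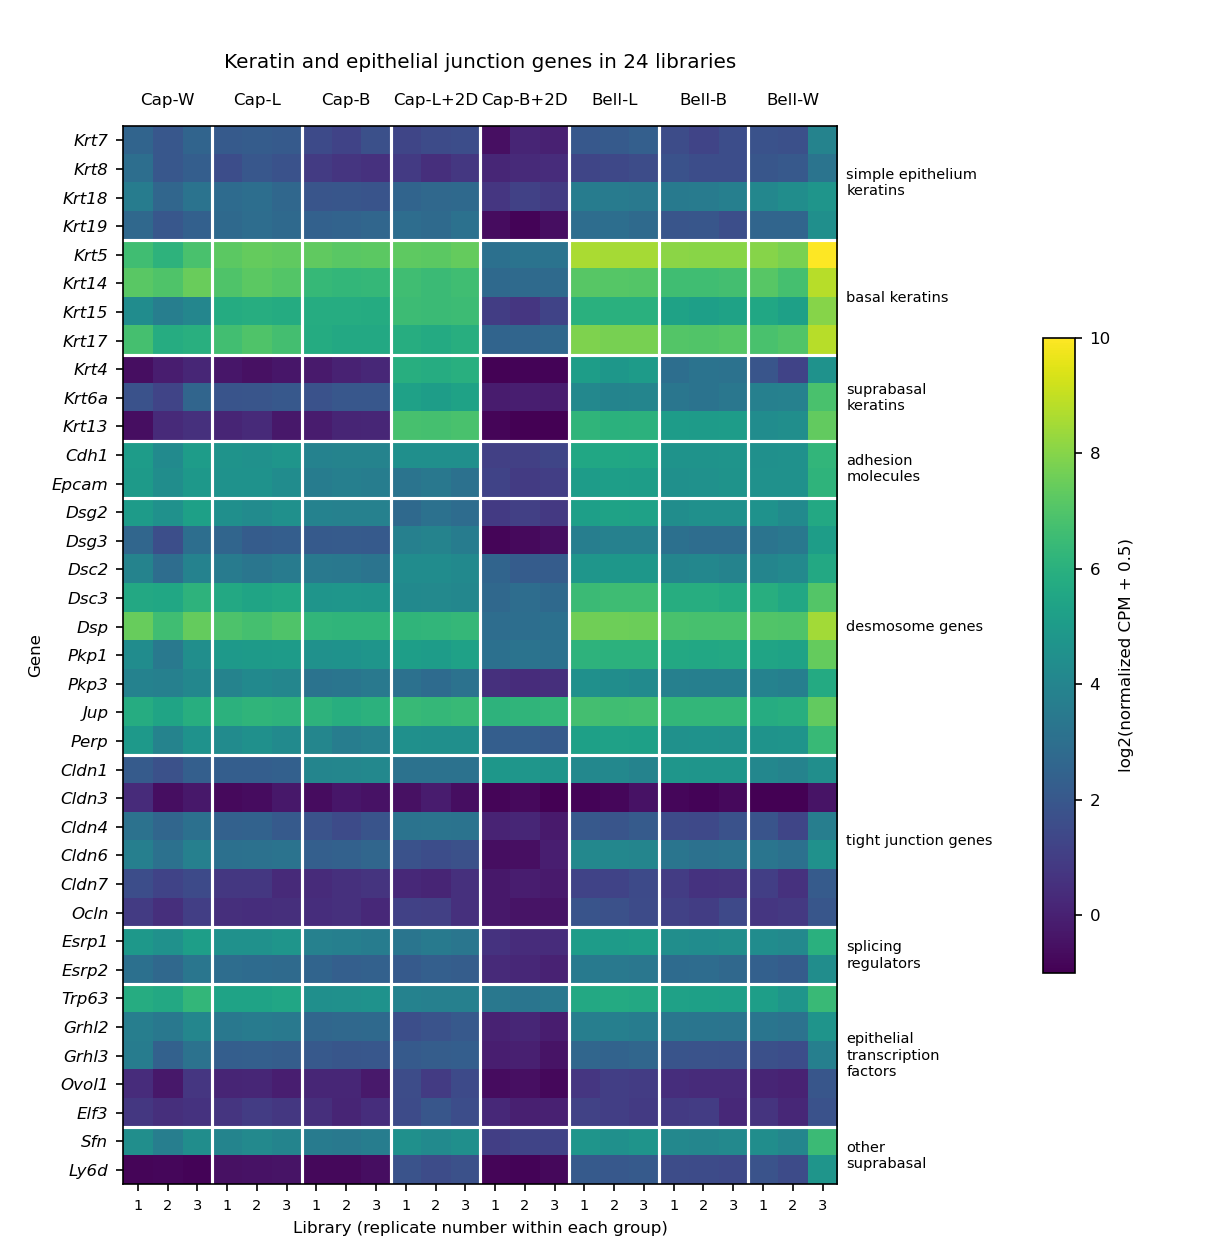
The 37 members in each of the 24 libraries, as log2 of normalized CPM plus 0.5, with rows grouped by role and columns by group and replicate. The 3 libraries of Cap-B+2D are darkest in nearly every row, with Jup, Cldn1 and Ly6d, lowest in Cap-W, as exceptions, Krt13 and Krt4 are bright in Cap-L+2D and dark in the uncultured cap groups, and Bell-W replicate 3 is brighter than Bell-W replicates 1 and 2 in every row.

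The letters of the promoters of some members are given here as a description. RefSeq promoters (build GRCm38.p6, 250 bases before to 50 after a start) were at hand for 18 of the 37 members, in 21 entries. The E-box CACCTG, read on both strands, is the core site of the ZEB and SNAI repressors of epithelial genes, and it stood in 15 of the 21 entries (71.4%) and in 20.2% of all 32851 promoters of that length. Counted by gene it stood in 14 of the 18 members, since the entries of Ocln overlap each other and share an E-box. The grainyhead-like motif AACCNGTT stood in 1 entry (4.76%), that of Sfn, against 2.09% of all, and the OVOL motif CCGTTA stood in none of the 21 entries and in 2.76% of all. Motifs did not overlap one another in these entries. Letters in a window are a description only and do not show binding. Shown are Epcam (chr17:87635729-87636028, plus strand), Krt18 (chr15:102027966-102028265, plus strand), Krt8 (chr15:102004293-102004592, minus strand), Krt5 (chr15:101712856-101713155, minus strand) and Sfn (chr4:133602119-133602418, minus strand) as genes with the E-box, and Krt13 (chr11:100121517-100121816, minus strand) and Cldn1 (chr16:26371790-26372089, minus strand) as genes without any of the motifs, since Krt13 rose in the cultured lingual part and Cldn1 alone was called higher on the buccal side. The entries of Krt14 and Jup also held none of the motifs. Krt14 nonetheless had a correlation of 0.97 with the mean log2 level of Cdh1, Epcam, Esrp1 and Grhl2 over the libraries. Cldn4 and Elf3 held the E-box and rose in the cultured lingual part, as Krt13 did. Whether the motifs go with these patterns was not tested. Capitals mark the E-box on either strand and, in Sfn, also the grainyhead-like motif, which comes first.
Epcam: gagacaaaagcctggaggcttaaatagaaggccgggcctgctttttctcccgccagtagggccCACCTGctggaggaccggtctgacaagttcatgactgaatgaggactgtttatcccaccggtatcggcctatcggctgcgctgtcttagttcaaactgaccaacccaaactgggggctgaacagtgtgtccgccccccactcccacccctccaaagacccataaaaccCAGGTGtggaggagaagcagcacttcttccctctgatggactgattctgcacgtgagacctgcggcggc
Krt18: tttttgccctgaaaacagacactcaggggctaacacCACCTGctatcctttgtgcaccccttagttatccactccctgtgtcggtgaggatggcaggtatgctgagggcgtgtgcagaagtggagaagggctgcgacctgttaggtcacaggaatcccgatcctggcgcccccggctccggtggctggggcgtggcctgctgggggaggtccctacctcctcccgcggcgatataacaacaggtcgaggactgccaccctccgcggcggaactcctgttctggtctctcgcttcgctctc
Krt8: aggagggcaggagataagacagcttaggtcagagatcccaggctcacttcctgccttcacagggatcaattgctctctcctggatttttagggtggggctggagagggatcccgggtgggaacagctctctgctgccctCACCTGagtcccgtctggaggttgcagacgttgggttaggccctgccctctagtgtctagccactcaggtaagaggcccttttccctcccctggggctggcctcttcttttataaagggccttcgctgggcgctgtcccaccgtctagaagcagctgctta
Krt5: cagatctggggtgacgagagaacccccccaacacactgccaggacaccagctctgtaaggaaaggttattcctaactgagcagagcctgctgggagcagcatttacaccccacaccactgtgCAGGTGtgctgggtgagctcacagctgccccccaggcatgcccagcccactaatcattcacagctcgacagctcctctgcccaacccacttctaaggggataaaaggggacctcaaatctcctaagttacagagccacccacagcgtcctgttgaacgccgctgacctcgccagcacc
Sfn: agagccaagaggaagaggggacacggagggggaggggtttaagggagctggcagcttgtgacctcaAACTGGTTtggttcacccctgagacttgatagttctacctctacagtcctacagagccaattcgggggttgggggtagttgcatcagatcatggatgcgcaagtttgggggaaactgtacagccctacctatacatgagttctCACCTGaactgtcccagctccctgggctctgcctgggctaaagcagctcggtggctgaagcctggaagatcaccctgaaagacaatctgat
Krt13: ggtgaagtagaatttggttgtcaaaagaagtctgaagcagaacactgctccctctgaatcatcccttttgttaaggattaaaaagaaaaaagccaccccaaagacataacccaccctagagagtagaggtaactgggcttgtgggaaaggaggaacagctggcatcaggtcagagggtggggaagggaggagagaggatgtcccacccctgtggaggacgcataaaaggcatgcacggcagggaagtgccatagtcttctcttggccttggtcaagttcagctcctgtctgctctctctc
Cldn1: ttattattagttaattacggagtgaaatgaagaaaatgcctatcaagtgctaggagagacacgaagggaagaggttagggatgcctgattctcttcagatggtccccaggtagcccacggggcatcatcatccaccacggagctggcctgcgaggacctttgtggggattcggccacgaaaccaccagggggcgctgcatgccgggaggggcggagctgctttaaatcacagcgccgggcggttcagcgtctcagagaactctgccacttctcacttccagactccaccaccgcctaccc

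To ask whether the parts of one germ differed, the buccal part was compared with the lingual part at each stage. Genes were called where the adjusted p lay under 0.05 and the log2 fold change passed 0.5 in either direction by edgeR's quasi-likelihood test, and log2 fold changes are given with their standard errors. At the cap stage, 34 members could be tested, of which 18 were lower and 1 higher in Cap-B than in Cap-L, where 17.5% of all genes tested were called. Their median log2 fold change was -0.55, against -0.01 over all genes. At the bell stage 26 of 36 were lower and 1 higher in Bell-B, with 12.9% of all genes called, and their median was -0.69. After culture 33 of 36 were lower and 1 higher in Cap-B+2D, with 25.1% of all genes called, and their median was -3.24. The 1 member that was higher on the buccal side was Cldn1 each time. When all 24 libraries entered 1 fit, calls fell to 9 members for the cap parts and 7 for the bell parts.

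**Figure D2:**
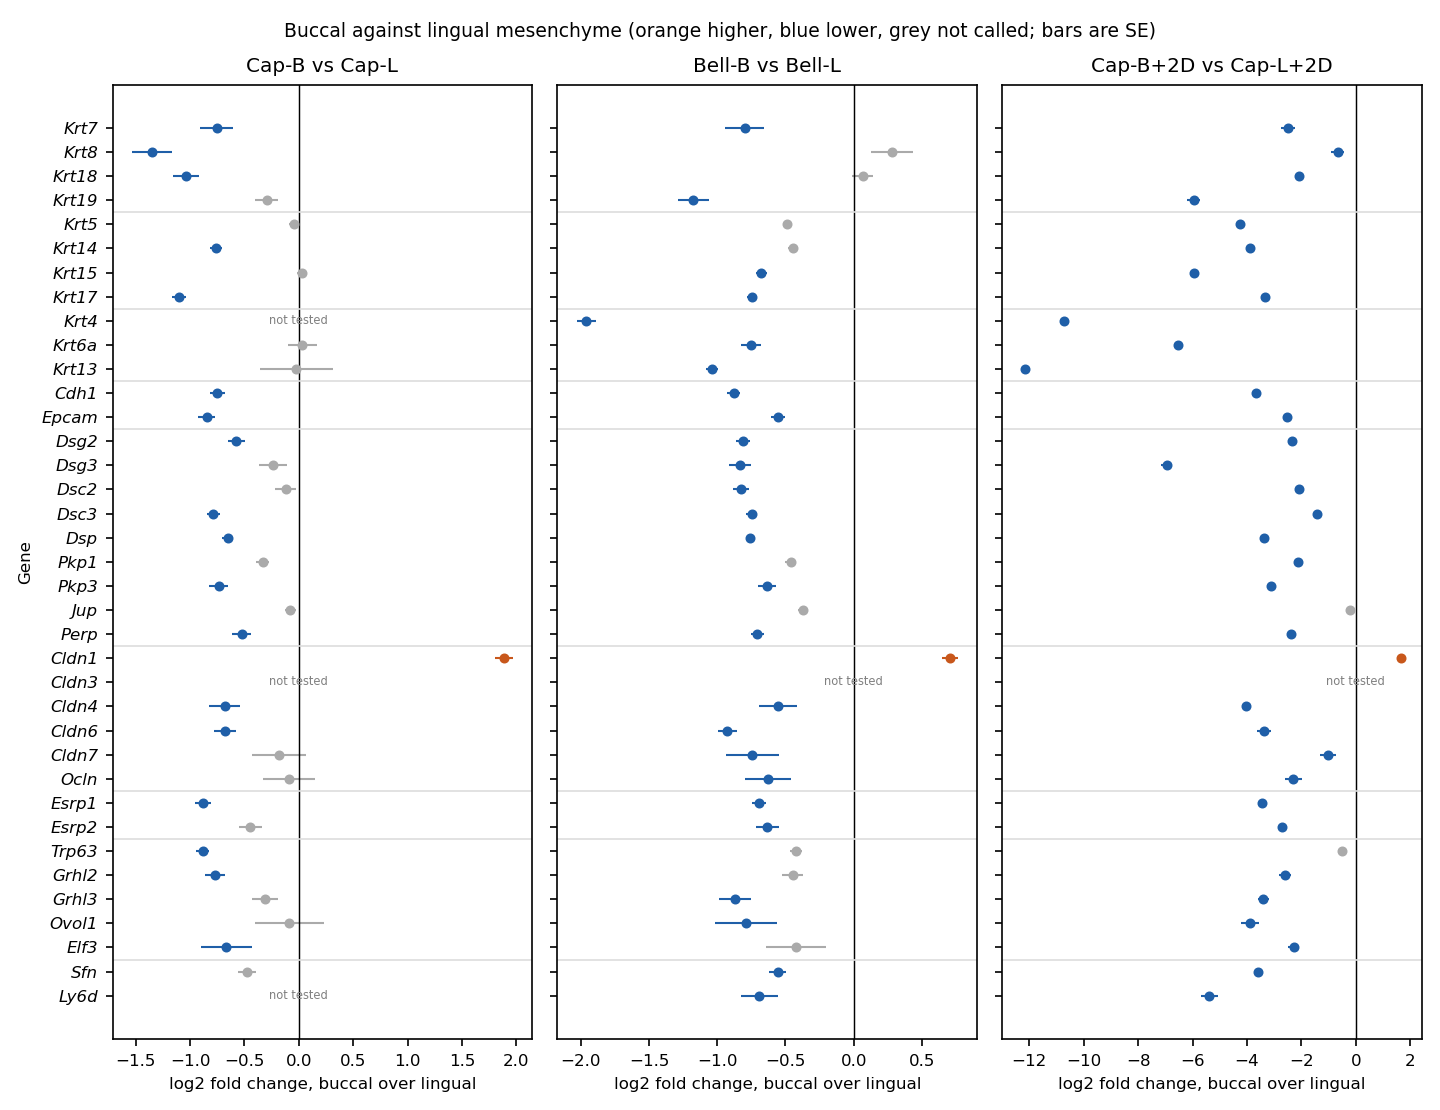
Log2 fold change of the buccal over the lingual part for each member at the cap stage, at the bell stage and after culture, with SE bars and a scale of its own in each panel. Points lie left of 0 for 31 of 34, 33 of 36 and 35 of 36 members, Cldn1 lies right of 0 in all panels, and the fitted values of Krt4 and Krt13 in the last panel rest on Cap-B+2D libraries at or under 3 counts.

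Stage and culture were then compared within each side. From Cap-L to Bell-L, 24 of 36 members rose and none fell (20% of all genes called), with a median log2 fold change of 0.80. From Cap-B to Bell-B, 24 of 36 rose and 2, Krt15 and Krt19, fell (18.7% of all genes called), with a median of 0.69, and 13 members were called when all 24 libraries were fitted together. Culture of the lingual part split the members: 12 rose and 14 fell between Cap-L and Cap-L+2D, with 35.4% of all genes called and a median of -0.04. Culture of the buccal part did not: 32 of 36 fell and 1, Cldn1, rose between Cap-B and Cap-B+2D, with 34.5% of all genes called and a median of -2.94. These stage and culture comparisons share their Cap-L or Cap-B libraries.

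The undivided samples were more variable. From Cap-W to Bell-W, 9 of 36 members rose and none fell (14.5% of all genes called), namely Krt18, Krt5, Krt15, Krt4, Krt6a, Krt13, Pkp1, Cldn1 and Ly6d. Without Bell-W replicate 3, 8 of the 9 were called again and 3 members, Trp63, Grhl3 and Cldn4, were called lower. Without Cap-W replicate 1, 2 or 3 the calls numbered 4, 4 and 3, all higher, and with all 24 libraries in 1 fit they numbered 17. Cap-W was set against the mean of Cap-L and Cap-B, where 16 of 35 members were higher and 4 lower (22.3% of all genes called). Without Cap-W replicate 1 this gave 15 members higher and 5 lower, and leaving out any 1 library gave between 15 and 26 calls. Bell-W was set against the mean of Bell-L and Bell-B, where 4 of 36 were higher and none lower (9.56% of all genes called). Without Bell-W replicate 3 the last comparison turned, with 2 members higher and 11 lower. Without Bell-W replicate 1 or 2 it gave 10 members higher, and without any 1 library of Bell-L or Bell-B it gave 2. Undivided samples did not always lie between their parts. Mesenchyme markers summed to 6276 to 7309 CPM in Cap-W, against 9571 to 9978 in Cap-L and 11961 to 12386 in Cap-B. They summed to 10169 to 10704.5 CPM in Bell-W, against 15074 to 15568 in Bell-L and 15094.5 to 15363 in Bell-B. Division and any other difference between undivided and divided samples cannot be told apart here.

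Whether the side difference itself changed was tested as an interaction at an adjusted p under 0.05. Between the stages it changed in 19 of 36 members, 7 toward the buccal and 12 toward the lingual part at the bell stage, where 32.5% of all genes passed, and with all 24 libraries in 1 fit it changed in 3. Between uncultured and cultured cap stage parts it changed in 32 of 36 members, 31 of them toward the lingual part and only Trp63 toward the buccal part, where 35.5% of all genes passed.

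The simple epithelium keratins were low, and Krt8 and Krt18 differed in pattern from Krt7 and Krt19. Krt8 (ENSMUSG00000049382, chr15:101905133-101912917 on GRCm39) was at 2.54, 3.48 and 2.93 CPM in Cap-L, 1.40, 1.13 and 0.974 in Cap-B, 1.98, 2.15 and 2.46 in Bell-L and 2.95, 2.53 and 2.55 in Bell-B. The sides were apart at both stages, but Cap-L was above Cap-B and Bell-L below Bell-B. The lower level on the buccal side was called at the cap stage (-1.35 ± 0.19, adjusted p = 1.11e-05), and the difference at the bell stage was not (0.28 ± 0.15, adjusted p = 0.152). The change of the side difference with stage was 1.63 ± 0.24, adjusted p = 3.22e-06. Krt8 was at 1.31, 0.878 and 1.24 CPM in Cap-L+2D and 0.632, 0.732 and 0.823 in Cap-B+2D. It fell in culture on the lingual side (-1.38 ± 0.18, adjusted p = 2.66e-07) and on the buccal side (-0.69 ± 0.23, adjusted p = 0.00992). In the undivided samples Krt8 was at 7.46, 3.49 and 4.43 CPM in Cap-W and 3.35, 3.73 and 8.86 in Bell-W, which overlapped. Cap-W was higher than its parts (1.47 ± 0.23, adjusted p = 0.000898).

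Krt18, the partner of Krt8 (chr15:101936615-101940462), was also called lower in Cap-B and rose with stage on both sides. It was at 6.80, 7.43 and 5.83 CPM in Cap-L and 3.25, 3.31 and 3.08 in Cap-B, with no overlap. At the bell stage it was at 11.7, 11.6 and 10.4 CPM in Bell-L and 10.8, 11.4 and 12.9 in Bell-B, which overlapped. The cap stage side difference was called (-1.04 ± 0.12, adjusted p = 1.23e-06), that at the bell stage was 0.07 ± 0.08, adjusted p = 0.554, and the change between the stages was 1.10 ± 0.15, adjusted p = 6.76e-07. Krt18 rose from Cap-B to Bell-B (1.86 ± 0.11, adjusted p = 6.19e-16) and from Cap-L to Bell-L (0.75 ± 0.09, adjusted p = 3.53e-07). Cultured parts held 5.38, 6.15 and 6.28 CPM in Cap-L+2D, which overlapped with Cap-L, and 1.18, 1.67 and 1.39 in Cap-B+2D, below every Cap-B library (-1.22 ± 0.16, adjusted p = 5.51e-08). Undivided samples held 11.9, 5.77 and 8.64 CPM in Cap-W and 16.4, 20.7 and 26.6 in Bell-W, so that all 3 Bell-W libraries were above all Cap-W libraries (1.28 ± 0.28, adjusted p = 0.0204). Without Bell-W replicate 3 this call was lost (1.08 ± 0.29, adjusted p = 0.053).

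Krt19 and Krt7, also found in simple and glandular epithelia, were lower on the buccal side at the bell stage and after culture. Krt19 (chr11:100031636-100039491) was at 7.04, 7.26 and 6.55 CPM in Bell-L and 3.25, 3.31 and 2.65 in Bell-B, with a gap between them (-1.18 ± 0.11, adjusted p = 1.26e-11). It was at 7.11, 6.39 and 8.13 CPM in Cap-L+2D and at 0.137, 0.0349 and 0.158 in Cap-B+2D, where it was nearly absent (-5.95 ± 0.24, adjusted p = 5.48e-17). Those Cap-B+2D libraries held 5, 1 and 5 counts, so the size of this difference is uncertain. At the cap stage Cap-L held 6.19, 7.10 and 6.22 CPM and Cap-B 4.79, 5.23 and 5.65, a difference of -0.29 ± 0.11, adjusted p = 0.0323, which was below the fold limit. Undivided samples held 6.01, 3.49 and 4.61 CPM of Krt19 in Cap-W and 5.54, 5.49 and 22.1 in Bell-W. Krt7 was lower in the buccal part in all 3 comparisons, with log2 fold changes of -0.76 ± 0.15, -0.80 ± 0.14 and -2.48 ± 0.25. No change of Krt7 with stage was called on either side.

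The basal keratins were the most abundant members per kilobase in Cap-L. Krt5 (ENSMUSG00000061527, chr15:101615505-101621333, with 5.87% of its exon bases shared with the model Gm55161) was at 151, 167 and 159 CPM in Cap-L and 157, 147 and 151 in Cap-B, which overlapped (-0.04 ± 0.05, adjusted p = 0.473). At the bell stage Bell-L held 388, 368 and 368 CPM and Bell-B 272, 262 and 267. The parts no longer overlapped, and the difference of -0.49 ± 0.03, adjusted p = 9.81e-17 stayed just under the fold limit. Krt5 rose with stage on the lingual side (1.24 ± 0.05, adjusted p = 1.11e-16) and on the buccal side (0.81 ± 0.03, adjusted p = 1.04e-19). In culture the sides parted: Cap-L+2D held 155, 149.98 and 170.4 CPM, overlapping with Cap-L, and Cap-B+2D held 7.77, 8.61 and 8.61. The fall from Cap-B to Cap-B+2D was -4.21 ± 0.05, adjusted p = 8.55e-36. In the undivided samples Cap-W held 99.6, 68.6 and 115 CPM and Bell-W 260.4, 224 and 1028, all 3 higher at the bell stage (2.41 ± 0.59, adjusted p = 0.0305), and without Bell-W replicate 3 the difference was 1.35 ± 0.21, adjusted p = 0.0106.

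Krt14, the type I partner of Krt5 (chr11:100093988-100098374), was not called between the stages on either side. It was at 126, 152 and 135 CPM in Cap-L and 143, 137 and 134 in Bell-L, which overlapped (0.01 ± 0.05, adjusted p = 0.92). It was at 82.3, 78.4 and 78.9 CPM in Cap-B and 98.8, 98.4 and 105 in Bell-B, which did not, although the rise of 0.33 ± 0.04, adjusted p = 9.44e-09 was under the fold limit. At the cap stage it was lower on the buccal side at -0.76 ± 0.06, adjusted p = 2.54e-09. After culture Krt14 was at 98.4, 89.04 and 98.5 CPM in Cap-L+2D and 6.37, 6.41 and 6.59 in Cap-B+2D, and its changes in culture of -0.52 ± 0.06 and -3.65 ± 0.05 were both called. Undivided samples held 147, 127 and 178 CPM in Cap-W and 141, 106.96 and 449 in Bell-W, which overlapped.

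Krt15 is a keratin of basal cells. It was at 54.7, 57.6 and 53.3 CPM in Cap-L and 56.5, 55.1 and 54.9 in Cap-B, an overlap, and at 19.8, 12.5 and 16.0 in Cap-W, below every divided cap library (-1.77 ± 0.12, adjusted p = 5.05e-06). In culture it rose to 93.6, 90.4 and 93.3 CPM on the lingual side (0.75 ± 0.04, adjusted p = 1.2e-13) and fell to 1.51, 1.18 and 1.84 on the buccal side (-5.21 ± 0.08, adjusted p = 5.84e-32). The side difference after culture was -5.93 ± 0.08, adjusted p = 1.48e-26. At the bell stage Bell-L held 62.8, 62.1 and 62.9 CPM and Bell-B 39.98, 36.9 and 40.4 (-0.68 ± 0.04, adjusted p = 2.49e-17), so the side difference appeared with stage (-0.71 ± 0.06, adjusted p = 2.4e-10). Bell-W held 45.9, 37.8 and 258 CPM. Krt17 was lower on the buccal side throughout: 102, 126 and 104 CPM in Cap-L against 53.6, 48.7 and 49.3 in Cap-B (-1.10 ± 0.07, adjusted p = 1.73e-10), and 234, 217 and 216 in Bell-L against 132, 128 and 137 in Bell-B (-0.75 ± 0.03, adjusted p = 1.47e-21). Krt17 rose with stage on both sides (1.02 ± 0.06 and 1.38 ± 0.04) and fell in culture on both (-0.96 ± 0.06 and -3.20 ± 0.06).

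**Figure D3:**
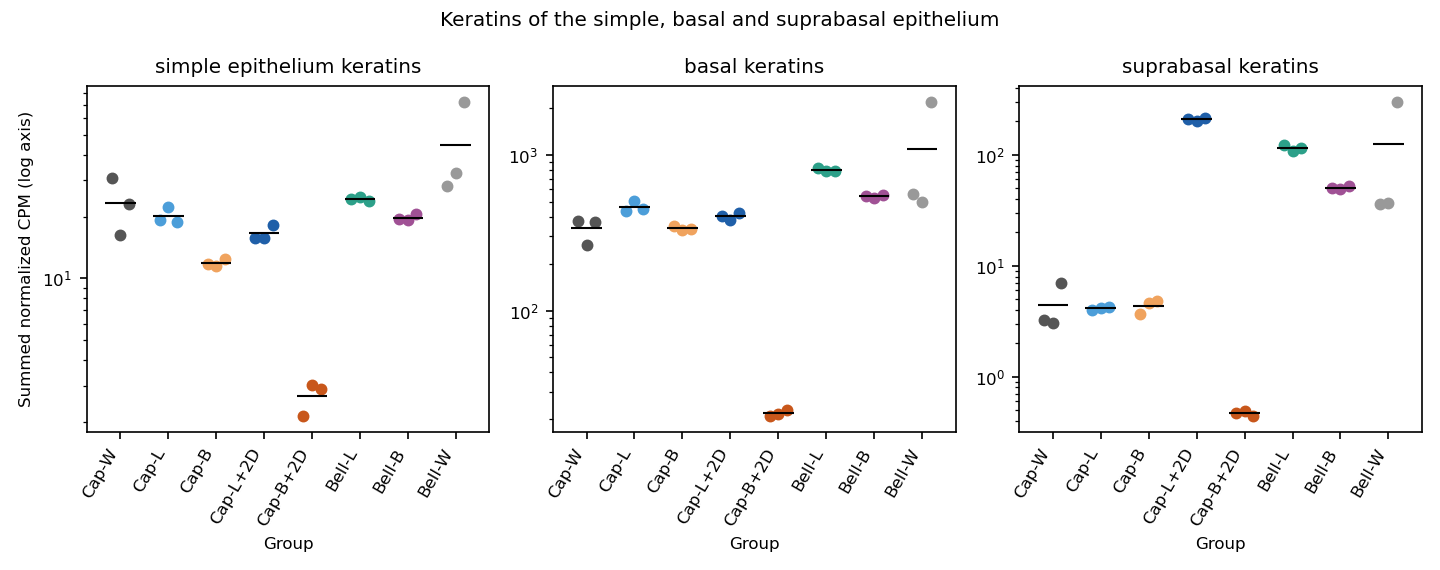
Summed normalized CPM of the simple epithelium, basal and suprabasal keratins in each library on a log axis, with a line at the mean of each group of 3. Sums are not per gene length. Suprabasal keratins sit between 3.06 and 7.03 in the uncultured cap groups, between 199.8 and 214 in Cap-L+2D and under 0.49 in Cap-B+2D, while the basal keratins of Cap-L+2D stay within 382 to 421.

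The suprabasal keratins rose with stage on both sides and in the cultured lingual part. Krt13 (ENSMUSG00000044041, chr11:100008153-100012392) was at 0.167, 0.725 and 0.940 CPM in Cap-W, 0.608, 0.724 and 0.318 in Cap-L and 0.407, 0.586 and 0.623 in Cap-B, near the floor and with overlapping groups. In Cap-L+2D it was at 112, 109 and 114 CPM. The rise in culture was 7.63 ± 0.10, adjusted p = 8.15e-27. In Cap-B+2D it was at 0.0549, 0 and 0 CPM, with every library at or under 3 counts, so that Cap-L+2D was at least 1189-fold higher against a floor of 3 counts per library. At the bell stage Bell-L held 72.1, 65.7 and 66.9 CPM and Bell-B 33.4, 32.4 and 33.7, every Bell-L library above every Bell-B library (-1.04 ± 0.04, adjusted p = 3.69e-23). Krt13 rose with stage by 6.92 ± 0.11 on the lingual and 5.91 ± 0.12 on the buccal side, both called. Bell-W held 19.8, 20.9 and 164 CPM and was above Cap-W with replicate 3 (6.71 ± 1.12, adjusted p = 0.00665) and without it (4.97 ± 0.47, adjusted p = 0.00225).

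Krt4, the type II partner of Krt13 in the oral mucosa (chr15:101826970-101833170), was likewise high in the cultured lingual part and in Bell-L. It was at 0.167, 0.428 and 0.627 CPM in Cap-W, 0.286, 0.195 and 0.283 in Cap-L and 0.361, 0.544 and 0.662 in Cap-B, and too low there to be tested between the sides. It was at 59.7, 55.9 and 60.3 CPM in Cap-L+2D (7.86 ± 0.13, adjusted p = 5.63e-25). Cap-B+2D held 0.0275, 0.0349 and 0.0317 CPM, all at or under 3 counts, which puts Cap-L+2D at least 624-fold higher. Bell-L held 33.9, 28.1 and 32.5 CPM and Bell-B 7.35, 8.51 and 8.45. This was the largest side difference of any member at the bell stage (-1.96 ± 0.07, adjusted p = 4.71e-25). Bell-W held 3.23, 1.84 and 23.9 CPM, of which replicates 1 and 2 lay under all Bell-B libraries. Krt6a, with 24.8% of its exon bases shared with the models Gm49428 and Gm55158, was already measured at the cap stage, at 3.11, 3.23 and 3.60 CPM in Cap-L and 2.94, 3.52 and 3.51 in Cap-B, which overlapped. It rose to 39.4, 34.8 and 40.5 CPM in Cap-L+2D (3.53 ± 0.09, adjusted p = 2.03e-21) and fell to 0.385, 0.453 and 0.412 in Cap-B+2D (-3.02 ± 0.20, adjusted p = 6.82e-15). In Bell-W it was at 13.2, 13.8 and 114 CPM, against 16.9, 15.0 and 15.7 in Bell-L and 9.62, 8.54 and 9.94 in Bell-B, and the call over the parts (1.95 ± 0.58, adjusted p = 0.0378) was lost without replicate 3 (0.13 ± 0.08, adjusted p = 0.194).

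Of the other suprabasal genes, Ly6d, a surface protein of the Ly6 family, rose in the cultured lingual part, and for Sfn, the 14-3-3 sigma protein of stratified epithelia, no rise was called there. Ly6d was at 0.215, 0.223 and 0.247 CPM in Cap-L, 3.00, 2.42 and 2.85 in Cap-L+2D, 3.81, 3.61 and 3.79 in Bell-L and 2.43, 2.35 and 2.15 in Bell-B, and rose with culture of the lingual part (3.58 ± 0.23, adjusted p = 6.21e-13). Cap-B held 0.0903, 0.0837 and 0.156 CPM of Ly6d and Cap-B+2D 0.0549, 0.0349 and 0.0950. In Cap-W every library was at or under 3 counts of Ly6d, and Bell-W, at 3.00, 2.39 and 26.3 CPM, was at least 79.1-fold higher, or 20.2-fold without replicate 3. Sfn was at 15.4, 17.7 and 15.3 CPM in Cap-L and 22.7, 18.5 and 22.0 in Cap-L+2D, a difference of 0.39 ± 0.08, adjusted p = 0.000173 under the fold limit. In Cap-B it was at 11.5, 10.4 and 12.3 CPM and in Cap-B+2D at 1.57, 1.88 and 1.80 (-2.73 ± 0.11, adjusted p = 1.27e-20). At the bell stage Bell-L held 26.6, 22.5 and 25.5 CPM of Sfn and Bell-B 17.2, 15.9 and 17.4, without overlap (-0.56 ± 0.06, adjusted p = 6.98e-10). Cap-W held 21.0, 12.6 and 20.8 CPM and Bell-W 20.7, 16.1 and 89.6, which overlapped. Ovol1 and Grhl3, which also belong to the suprabasal programme, are given with the transcription factors. Over the 7 suprabasal genes, 5 rose and none fell from Cap-L to Cap-L+2D, and over the 5 basal genes (the basal keratins and Trp63) 1 rose and 3 fell, where 35.4% of all genes were called. The difference between these groups of genes was not tested.

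Of the adhesion molecules, Cdh1, which encodes E-cadherin (ENSMUSG00000000303, chr8:107329983-107396878), was at 25.02, 23.5 and 26.4 CPM in Cap-L and 14.1, 14.8 and 14.8 in Cap-B (-0.75 ± 0.07, adjusted p = 4.6e-08). It was at 46.4, 46.3 and 44.9 CPM in Bell-L and 24.9, 24.4 and 25.5 in Bell-B (-0.88 ± 0.05, adjusted p = 2.62e-19). The lingual libraries were higher at both stages, with no overlap, and the side difference did not pass the test for a change with stage (-0.13 ± 0.08, adjusted p = 0.212). In culture Cdh1 stayed at 21.6, 21.8 and 22.2 CPM in Cap-L+2D (-0.18 ± 0.06, adjusted p = 0.00832, under the fold limit) and fell to 1.65, 1.60 and 1.96 in Cap-B+2D (-3.09 ± 0.10, adjusted p = 1.63e-23). Undivided samples held 33.0, 18.9 and 32.9 CPM in Cap-W and 22.5, 23.5 and 75.2 in Bell-W, which overlapped.

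Epcam, an adhesion molecule of most epithelia (ENSMUSG00000045394, chr17:87943407-87958557), was at 23.6, 23.7 and 20.2 CPM in Cap-L and 11.8, 12.8 and 12.2 in Cap-B (-0.85 ± 0.08, adjusted p = 4.26e-08), and at 33.8, 34.95 and 34.5 in Bell-L and 22.7, 23.4 and 24.3 in Bell-B (-0.55 ± 0.05, adjusted p = 5.54e-12). It was called lower in the cultured lingual part, at 9.04, 10.2 and 8.16 CPM (-1.30 ± 0.08, adjusted p = 3.06e-13). It was at 1.84, 1.36 and 1.55 CPM in Cap-B+2D (-2.96 ± 0.11, adjusted p = 6.66e-22). Undivided samples held 31.0, 20.3 and 28.4 CPM in Cap-W and 23.0, 23.3 and 70.9 in Bell-W, and Cap-W was higher than the mean of its parts (0.70 ± 0.12, adjusted p = 0.00144).

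The desmosome genes comprise cadherins (Dsg2, Dsg3, Dsc2 and Dsc3), plaque proteins (Dsp, Pkp1, Pkp3 and Jup) and the membrane protein Perp. Of the 9, 5 were lower in Cap-B than in Cap-L (17.5% of all genes called), 7 in Bell-B than in Bell-L (12.9%) and 8 in Cap-B+2D than in Cap-L+2D (25.1%), and none was higher on the buccal side. Dsp, desmoplakin, which ties keratin filaments to the plaque (ENSMUSG00000054889, chr13:38335270-38382553), was at 120.0, 108 and 124 CPM in Cap-L and 74.6, 72.0 and 73.0 in Cap-B (-0.66 ± 0.05, adjusted p = 9.99e-09). It was at 197, 189 and 187 CPM in Bell-L and 114, 113 and 112 in Bell-B (-0.76 ± 0.03, adjusted p = 8.56e-23). After culture it was at 73.7, 74.9 and 78.8 CPM in Cap-L+2D and 7.11, 7.35 and 7.76 in Cap-B+2D, and its changes in culture of -0.62 ± 0.05 and -3.33 ± 0.05 were both called. At each of these steps the groups did not overlap.

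The desmosomal cadherins parted in the cultured lingual part. Dsg3 was at 5.48, 4.15 and 4.45 CPM in Cap-L and 13.3, 14.8 and 11.9 in Cap-L+2D (1.51 ± 0.10, adjusted p = 2.14e-12), and Dsc2 was at 11.5, 9.41 and 11.6 in Cap-L and 19.9, 20.0 and 18.3 in Cap-L+2D (0.85 ± 0.08, adjusted p = 4.91e-10). Both rose, without overlap. Dsg2, the desmoglein of simple and basal cells, fell from 21.5, 19.5 and 22.8 CPM in Cap-L to 6.24, 8.22 and 6.89 in Cap-L+2D (-1.56 ± 0.09, adjusted p = 3.51e-14), and Dsc3, a desmocollin of basal cells, fell from 49.0, 42.9 and 47.8 to 18.0, 17.6 and 16.5 (-1.42 ± 0.06, adjusted p = 1.62e-16). All 4 fell in the cultured buccal part, from -1.11 for Dsc2 to -5.19 for Dsg3 on the log2 scale, and all 4 rose from Cap-L to Bell-L, by 0.86 for Dsg2 to 1.53 for Dsg3. Dsg3 had 2, 3 and 5 counts in the Cap-B+2D libraries, so the size of its fall is uncertain. Dsc3 was also lower in Cap-B, at 26.3, 26.9 and 26.2 CPM (-0.79 ± 0.06, adjusted p = 5.2e-09), and rose to 57.4, 58.1 and 52.6 in Bell-B (1.07 ± 0.05, adjusted p = 2.34e-18), below the 90.5, 95.9 and 95.9 of Bell-L. For Dsc2 the sides overlapped at the cap stage, with 10.3, 10.0 and 8.92 CPM in Cap-B, and not at the bell stage, with 26.7, 28.2 and 28.1 in Bell-L and 15.5, 16.6 and 14.8 in Bell-B, and the change was -0.71 ± 0.11, adjusted p = 9.13e-06. Dsg2 in Cap-W, at 32.6, 23.4 and 38.1 CPM, was above its parts (0.88 ± 0.13, adjusted p = 0.000519), with 14.4, 13.9 and 13.8 in Cap-B. Dsg3 in Bell-W was at 8.82, 10.1 and 34.6 CPM, against 12.6, 13.8 and 13.6 in Bell-L and 7.98, 7.23 and 7.22 in Bell-B, and was not called (0.85 ± 0.36, adjusted p = 0.13).

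Of the plaque proteins, Pkp1 was at 19.7, 10.4 and 21.4 CPM in Cap-W and 42.2, 39.5 and 171 in Bell-W, the only desmosome gene called between the undivided stages (2.29 ± 0.61, adjusted p = 0.0402), also without Bell-W replicate 3 (1.24 ± 0.29, adjusted p = 0.0355). On the lingual side it rose from 30.1, 31.9 and 32.8 CPM in Cap-L to 69.0, 66.0 and 66.7 in Bell-L (1.10 ± 0.05, adjusted p = 6.45e-15). Jup, plakoglobin, is shared with adherens junctions and is known outside epithelia too. It was at 68.2, 59.3 and 66.6 CPM in Cap-B and 69.2, 72.5 and 77.3 in Cap-B+2D, and at 85.8, 80.4 and 84.2 in Cap-L+2D. Its difference between the cultured sides was -0.20 ± 0.04, adjusted p = 0.000494, under the fold limit, so it was the 1 desmosome gene not called there. Pkp3 and Perp were called lower on the buccal side in all 3 comparisons, with log2 fold changes of -0.74 ± 0.09, -0.64 ± 0.07 and -3.13 ± 0.15 for Pkp3, and of -0.52 ± 0.09, -0.71 ± 0.05 and -2.38 ± 0.08 for Perp.

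Among the tight junction genes, Cldn1 went against the other members. Claudin 1 (ENSMUSG00000022512, chr16:26175392-26190591) seals the epidermal barrier and is also found outside epithelia. It was at 4.40, 4.34 and 4.66 CPM in Cap-L and 15.5, 16.2 and 16.9 in Cap-B (1.88 ± 0.09, adjusted p = 2.29e-12). It was at 17.0, 17.0 and 14.8 CPM in Bell-L and 27.2, 26.2 and 25.9 in Bell-B (0.71 ± 0.06, adjusted p = 4.2e-13), and at 8.30, 8.47 and 8.49 in Cap-L+2D and 27.7, 27.1 and 25.8 in Cap-B+2D (1.67 ± 0.07, adjusted p = 4.14e-17). In all 3 comparisons every buccal library was above every lingual one. It rose with stage by 1.87 ± 0.09 on the lingual and 0.70 ± 0.06 on the buccal side, and the side difference became smaller at the bell stage (-1.19 ± 0.11, adjusted p = 2.67e-10). In culture it rose by 0.92 ± 0.09 on the lingual and 0.71 ± 0.06 on the buccal side. Cap-W held 4.01, 2.83 and 4.48 CPM and Bell-W 16.4, 14.7 and 21.1, where replicate 3 stood out less than for any other member, and the rise was called with replicate 3 (2.20 ± 0.24, adjusted p = 0.00122) and without it (2.03 ± 0.22, adjusted p = 0.00359).

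Of the other 4 tight junction genes that were tested, 2 were called lower on the buccal side at the cap stage and all 4 at the bell stage and after culture. Cldn6 was at 7.95, 8.10 and 8.73 CPM in Cap-L, 4.61, 4.86 and 5.65 in Cap-B, 0.165, 0.174 and 0.443 in Cap-B+2D, 2.88, 2.49 and 2.79 in Cap-L+2D, 17.0, 16.5 and 15.8 in Bell-L and 9.06, 8.22 and 8.58 in Bell-B, so that it was lower in the buccal part of each pair (-0.68 ± 0.10, -0.93 ± 0.07 and -3.38 ± 0.26). It fell in culture of the lingual (-1.59 ± 0.10, adjusted p = 6.3e-13) and of the buccal part (-4.29 ± 0.22, adjusted p = 5.06e-18), and rose with stage (1.00 ± 0.08, adjusted p = 4.94e-11). Cldn4, a claudin of simple and suprabasal epithelia, rose in the cultured lingual part, from 4.83, 5.07 and 3.89 CPM in Cap-L to 8.75, 8.96 and 8.54 in Cap-L+2D (0.93 ± 0.10, adjusted p = 2.25e-08), and fell on the buccal side, from 3.03, 2.39 and 3.08 in Cap-B to 0.577, 0.627 and 0.380 in Cap-B+2D (-2.43 ± 0.21, adjusted p = 7.67e-12). Between the cultured sides it differed by -4.05 ± 0.15, adjusted p = 1.52e-17. Over all libraries Cldn7 and Ocln ranged from 0.244 to 3.94 CPM, and both were called lower in Bell-B than in Bell-L, with log2 fold changes of -0.75 ± 0.19 and -0.63 ± 0.17. Cldn3 was listed at or near the floor in most libraries, at most 0.779 CPM, and passed the filter on low counts in no comparison.

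Esrp1 and Esrp2 set the epithelial pattern of alternative splicing. Esrp1 (ENSMUSG00000040728, chr4:11331933-11386783) was at 23.6, 23.0 and 26.003 CPM in Cap-L and 13.8, 13.1 and 11.9 in Cap-B (-0.88 ± 0.08, adjusted p = 2.07e-08), at 33.8, 32.7 and 34.6 in Bell-L and 21.1, 20.1 and 21.2 in Bell-B (-0.69 ± 0.05, adjusted p = 1.51e-14), and at 9.28, 10.9 and 9.40 in Cap-L+2D and 1.02, 0.836 and 0.823 in Cap-B+2D (-3.46 ± 0.14, adjusted p = 4.01e-17). The lingual libraries were higher each time, with no overlap. It fell in culture on both sides (-1.29 ± 0.07 and -3.85 ± 0.12). Undivided samples held 28.5, 22.9 and 34.97 CPM in Cap-W and 19.9, 17.6 and 62.2 in Bell-W. Esrp2, with 21.4% of its exon bases shared with other genes, was at 7.74, 6.00 and 9.36 CPM in Cap-W and 4.70, 4.10 and 20.2 in Bell-W, which overlapped, and also fell in culture on both sides (-0.68 ± 0.10 and -2.92 ± 0.17).

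Trp63, the p63 factor of stratified epithelia (ENSMUSG00000022510, chr16:25502513-25710852), was at 41.7, 41.8 and 44.8 CPM in Cap-L and 21.8, 22.8 and 23.6 in Cap-B (-0.89 ± 0.06, adjusted p = 4.11e-10). It was at 49.9, 52.6 and 49.6 CPM in Bell-L and 39.4, 37.2 and 36.9 in Bell-B, without overlap but under the fold limit (-0.42 ± 0.04, adjusted p = 1.37e-10). The cultured parts came close, at 14.3, 13.3 and 13.6 CPM in Cap-L+2D and 9.97, 9.17 and 10.0 in Cap-B+2D (-0.496 ± 0.07, adjusted p = 2.97e-06, just under the fold limit and not called). Trp63 fell in culture on both sides (-1.64 ± 0.06, adjusted p = 3.99e-18 for the lingual and -1.24 ± 0.06, adjusted p = 8.96e-18 for the buccal part). Its side difference moved toward the buccal part with culture (0.39 ± 0.09, adjusted p = 0.00107), as that of no other member tested did except Krt8, for which the change did not pass (0.68 ± 0.31, adjusted p = 0.0909). Undivided samples held 56.3, 49.4 and 78.1 CPM in Cap-W, above the divided cap parts (1.00 ± 0.12, adjusted p = 0.000162), and 35.5, 26.01 and 86.6 in Bell-W.

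Grhl2, a grainyhead-like activator of junction genes, was at 10.1, 11.3 and 10.4 CPM in Cap-L, 2.67, 3.02 and 3.76 in Cap-L+2D, 5.78, 6.16 and 6.35 in Cap-B and 0.549, 0.627 and 0.412 in Cap-B+2D, and its changes in culture of -1.72 ± 0.11 and -3.54 ± 0.16 were both called. In Cap-W Grhl2 was at 12.4, 10.1 and 16.3 CPM, above the mean of its parts at 0.71 ± 0.13. In Bell-W it was at 9.28, 8.42 and 25.5 CPM, against 12.7, 12.8 and 12.0 in Bell-L and 9.42, 9.08 and 8.91 in Bell-B. Its relative Grhl3, a factor of suprabasal cells, was at 4.44, 4.54 and 4.27 CPM in Cap-L and 3.78, 4.25 and 4.40 in Cap-L+2D, which overlapped (-0.08 ± 0.11, adjusted p = 0.547), at 3.70, 3.35 and 3.47 in Cap-B and at 0.439, 0.488 and 0.253 in Cap-B+2D (-3.16 ± 0.20, adjusted p = 2.65e-15). Ovol1 and Elf3, factors of epithelial differentiation, were low but rose in the cultured lingual part. Ovol1 was at 0.608, 0.640 and 0.459 CPM in Cap-L and 2.42, 1.41 and 2.27 in Cap-L+2D (1.82 ± 0.24, adjusted p = 3.38e-07), with 22.1% of its exon bases shared with other genes, and at 0.835, 0.329 and 1.16 in Cap-W and 0.616, 0.544 and 3.39 in Bell-W, which overlapped. Elf3 was at 1.15, 1.42 and 1.20 CPM in Cap-L and 2.38, 3.41 and 2.52 in Cap-L+2D (1.13 ± 0.18, adjusted p = 5.4e-06).

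To describe the members relative to the adhesion molecules, each was divided by the summed level of Cdh1 and Epcam in the same library. Dsp had a ratio of 2.29 to 2.65 in Cap-L, 2.61 to 2.87 in Cap-B, 2.24 to 2.40 in Bell-B, 2.33 to 2.60 in Cap-L+2D and 2.04 to 2.48 in Cap-B+2D, and Cap-B lay above Bell-B and Cap-B+2D without overlap. Krt5 had a ratio of 3.10 to 3.54 in Cap-L and 5.33 to 6.05 in Cap-B, with Cap-B the higher. Krt13 had a ratio of 3.40 to 3.75 in Cap-L+2D, above the 0.808 to 0.898 of Bell-L and the 0.676 to 0.701 of Bell-B. Cap-B+2D stood apart for Trp63 at 2.86 to 3.09, against at most 1.27 in any other group, and for Cldn1 at 7.34 to 9.16 and Jup at 19.9 to 24.5. It also lay above every other group for Pkp1 at 2.28 to 2.93, Dsc3 at 1.77 to 2.38, Dsc2 at 1.16 to 1.53 and Perp at 1.13 to 1.46. The same held at lower ratios for Krt8, Cldn7, Ocln and Elf3, while for Krt19, Dsg3 and Esrp1 it lay below every other group. In Bell-W the ratio of Dsp was 2.42 to 2.80, including replicate 3, whose levels of both Dsp and the divisor were the highest of the group. These ratios are descriptions, and in Cap-B+2D their divisor was only 2.96 to 3.51 CPM. The make-up of the divisor also changed in culture, since Epcam fell more than Cdh1 on the lingual side. The share of Cdh1 in it was 0.499 to 0.567 in Cap-L and 0.681 to 0.731 in Cap-L+2D.

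**Figure D4:**
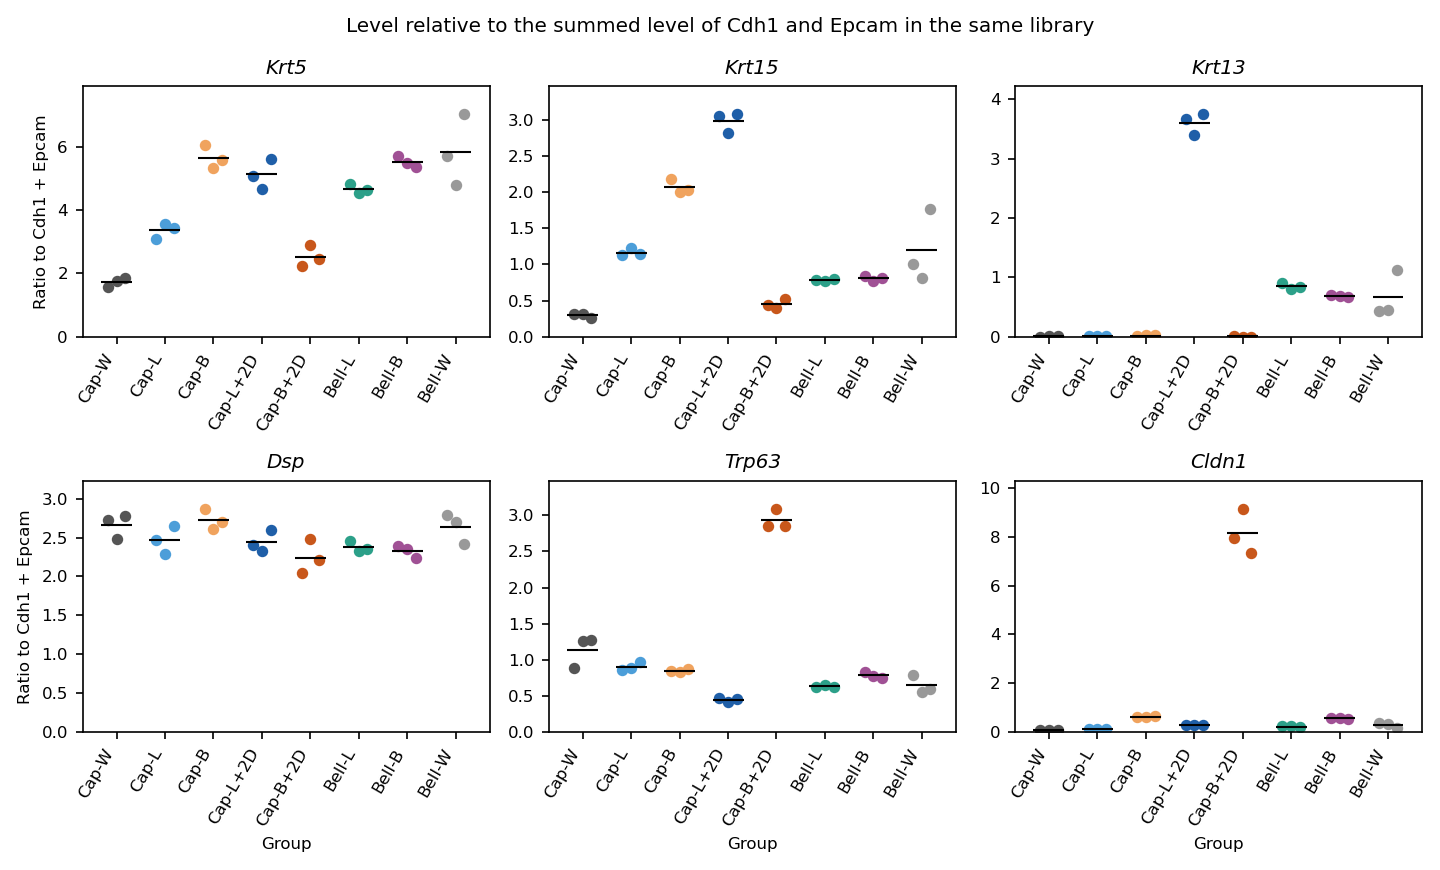
Level of 6 members divided by the summed level of Cdh1 and Epcam in the same library (no unit), by group, with a point per library and a line at the mean of 3. Dsp stays near 2 to 3 in all groups, Krt13 is highest in Cap-L+2D, Krt15 is highest in Cap-L+2D and Trp63 and Cldn1 are highest in Cap-B+2D.

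Across the 24 libraries, which fall into 8 groups and differ in depth, 18 of the 36 members with a value had a Pearson correlation of at least 0.9 with the mean log2 level of Cdh1, Epcam, Esrp1 and Grhl2, of which 4 are those genes themselves. The lowest were Cldn1 at -0.35, Jup at 0.21, Krt4 at 0.38, Krt13 at 0.45 and Elf3 at 0.45. Among 23402 genes that passed the filter, the 10 most like that mean outside the members were Ap1m2 (0.99), AI661453 (0.98), Cdcp1 (0.98), Plch2 (0.98), Ripk4 (0.98), St14 (0.98), Fermt1 (0.97), Trim29 (0.97), Nkx2-3 (0.97) and Sema4a (0.97).

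Other epithelial genes outside the members were counted for comparison, against 35.4% of all genes called from Cap-L to Cap-L+2D, 25.1% between the cultured sides, 17.5% between the cap sides and 12.9% between the bell sides. Of 14 other keratins, 7 could be tested in the lingual culture comparison and 6 rose and 1 fell from Cap-L to Cap-L+2D, and of 6 tested between the cultured sides 5 were lower in Cap-B+2D. Of 20 other epithelial identity genes, 15 of 19 tested were lower and 2 higher in Cap-B+2D than in Cap-L+2D, 6 of 20 were lower and 1 higher in Cap-B than in Cap-L, and 9 were lower and 3 higher in Bell-B than in Bell-L. Of 22 other junction genes, 9 of 19 tested were lower and 3 higher in Cap-B+2D than in Cap-L+2D. Of 8 hemidesmosome and epithelial basement membrane genes, 4 were lower and 1 higher in Cap-B+2D than in Cap-L+2D, although their summed level, which Plec and Dst led, was 711 to 777 CPM in Cap-B+2D and 539.8 to 557 in Cap-B. The 6 genes of the ZEB, SNAI and TWIST families, known as repressors of epithelial genes, summed to 644 to 659.7 CPM in Cap-L, 647 to 658 in Cap-B, 664 to 693 in Cap-L+2D and 610.0 to 623 in Cap-B+2D, and 2 of the 6 were called lower and none higher in Cap-B+2D than in Cap-L+2D, a share near that of all genes.

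Markers of other cell types moved with the same groups. Of all genes, 17.5% were called between the cap sides, 12.9% between the bell sides and 25.1% between the cultured sides. In culture 35.4% of all genes were called on the lingual and 34.5% on the buccal side. The 8 skeletal muscle markers were all higher on the buccal side in each of the 3 comparisons. Their sum was 21.1 to 22.5 CPM in Cap-L, 197 to 208 in Cap-B, 94.7 to 103 in Bell-L, 774 to 807 in Bell-B, 269 to 292 in Cap-L+2D and 3234 to 3449 in Cap-B+2D. In the undivided samples this sum was 17.2 to 22.8 CPM in Cap-W and 11.0 to 18.5 in Bell-W, so that Bell-W lay below both of its parts. The 6 Schwann and neural crest glia markers were all higher in Cap-B than in Cap-L, with sums of 61.4 to 66.3 and 26.7 to 27.7 CPM. Their sums were 96.6 to 99.7 CPM in Cap-B+2D and 16.7 to 17.9 in Cap-L+2D. The 7 erythroid markers all fell in culture on both sides, to sums of 20.4 to 24.8 and 25.96 to 29.1 CPM from 1814 to 2230.4 and 2113 to 2184. Of 8 endothelium markers, all fell from Cap-B to Cap-B+2D, to 181 to 185 CPM. They summed to 207 to 216 CPM in Cap-W, below Cap-L at 503 to 516 and Cap-B at 446 to 457. From Cap-L to Cap-L+2D 1 of them rose and 2 fell, a share near that of all genes. All 7 macrophage markers rose from Cap-L to Cap-L+2D and 6 rose from Cap-B to Cap-B+2D. Of the 7, 6 were lower in Bell-B than in Bell-L, with sums of 164 to 167 and 311 to 316 CPM, and 6 were lower in Cap-B+2D than in Cap-L+2D, with sums of 174 to 182 and 267 to 276. The 5 cartilage markers summed to 28.1 to 65.4 CPM in Bell-W, the lowest, and 260.1 to 277 in Cap-L, the highest group, and 4 of 4 tested were lower in Cap-B, at 125 to 129. The 5 salivary gland epithelium markers summed to 26.3 to 27.4 CPM in Cap-B+2D, the lowest, and 63.8 to 116 in Bell-W, the highest group, with Aqp5 and Muc19 at or under 3 counts in every Cap-L library. No cell type list was at 0 as a whole in any group, and the part of these cells in the results for the members was not tested.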

How the data were processed

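The deposited table held whole-number counts for each gene in 24 libraries. Per the file headers the authors counted paired reads with featureCounts over exons of Ensembl genes on GRCm39, without strand and without reads in several places or genes. The submitters' processing notes name FastQC 0.12.1, Trimmomatic 0.39, Bowtie 1.2.3, Subread 2.0.3 and DESeq2 1.40.2. Had Bowtie aligned reads to the genome, reads across splice junctions would be lost. The study's methods and the labels name different library kits. Overlapping exons and near-identical keratins lose reads, so those genes are uncertain. Counts were scaled with TMM factors and tested with edgeR 4.0.16 (R 4.3.3, quasi-likelihood, filter on low counts by filterByExpr, Benjamini-Hochberg adjustment over all genes tested) on the groups compared, with DESeq2 1.42.0 as an alternative. Totals per library (20581720 to 39266497) limit values near the floor of 3 counts, and bounds cover counting error only. The symbols of 56017 genes came from an annotation table. Members and lists were chosen with earlier results of these data known. Values in every library are given for Krt5, Krt14, Krt8, Krt18, Krt13, Krt4, Cdh1, Epcam, Trp63 and the member of each role with the lowest adjusted p per comparison. Tested on simulated data with 200 changed genes, edgeR recovered 199 for Cap-B vs Cap-L (20653 genes, 8 false calls), 130 for Bell-W vs Cap-W (20940 genes, 8 false calls) and 190 for side by stage (21931 genes, 12 false calls). DESeq2 recovered 193 with 0 false calls for Cap-B vs Cap-L and 152 with 58 false calls for Bell-W vs Cap-W. All changed genes had means above 1 CPM and changes well past the fold limit, so recovery of lower genes or smaller changes was not measured. No column of per-sample values was left out. Alternatives were RLE scaling, no filter, a replicate block, 1 fit of all libraries, no fold limit and leaving out each library.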

Additional observations from a re-analysis of the deposited data

Results flagged for a closer look

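The side difference of the following members changed with stage or with culture in edgeR's interaction test, on the log2 scale. Values above 0 mean a shift toward the buccal part. With stage, the values above 0 were 1.63 for Krt8, 1.10 for Krt18, 0.31 for Krt14, 0.29 for Epcam and 0.46 for Trp63. The values below 0 with stage were -0.45 for Krt5, -0.71 for Krt15, -3.06 for Krt4, -1.02 for Krt13, -0.71 for Dsc2 and -1.19 for Cldn1. With culture, the keratin values were -1.06 for Krt18, -5.66 for Krt19, -4.22 for Krt5, -3.13 for Krt14, -5.96 for Krt15 and -6.56 for Krt6a. Those of Krt4 (-11.80) and Krt13 (-12.11) with culture rest on Cap-B+2D libraries at or under 3 counts and depend on the prior count. The culture value of Krt19 also rests on low counts there, 5, 1 and 5. Among the other members the culture values were -2.91 for Cdh1, -1.67 for Epcam, -2.71 for Dsp, -3.37 for Cldn4, -2.58 for Esrp1, -3.09 for Grhl3 and -3.13 for Sfn, and Trp63 alone stood above 0, at 0.39. The skeletal muscle marker sum of Cap-B+2D, 3234 to 3449 CPM against 197 to 208 in Cap-B, moved with the culture values, and its part in them was not tested.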

How the results depend on the processing

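Of 2380 alternative values for 176 gene results, 2246 kept their direction and call, 67 lost the call, 29 gained one and 38 changed sign. The number of members called moved as follows, and the cause was not tested. With all 24 libraries in 1 fit it went from 9 to 17 for Bell-W vs Cap-W, 19 to 9 for Cap-B vs Cap-L, 27 to 7 for Bell-B vs Bell-L, 26 to 13 for Bell-B vs Cap-B, 4 to 11 for Bell-W vs its parts and 19 to 3 for side by stage. For Bell-W vs its parts it was 8 without a filter, 2 with DESeq2 and 2 with the replicate block. Leaving out 1 replicate gave 3 to 11 calls for Bell-W vs Cap-W and 2 to 13 for Bell-W vs its parts. Leaving out Bell-W replicate 3 took the members with their highest mean in Bell-W from 19 to 1 and the bound of Ly6d over Cap-W from 79.1-fold to 20.2-fold, an alternative chosen after seeing the data. Correlations of deviations between libraries of the same replicate number ran from -0.169 to 0.125. In some groups, such as Cap-B, replicates differed by little more than counting error. These correlations therefore cannot decide whether the numbers pair the libraries. With the block the other counts stayed within 1 of those without it. Among the 176, signs changed for the following values, given as lowest and highest without 1 replicate. For Bell-W vs Cap-W they were -0.54 and 0.40 for Krt8, -0.29 and 0.96 for Krt14, -0.31 and 0.83 for Cdh1, -0.21 and 0.86 for Epcam, -0.82 and 0.69 for Esrp2 and -0.41 and 1.44 for Ovol1. With the replicate block Krt8 was -0.0226 and Esrp2 -0.0501. For Cap-B vs Cap-L they were -0.0143 and 0.108 for Krt6a and -0.28 and 0.25 for Krt13, which was 0.0102 with the replicate block. They were -0.0109 and 0.124 for Krt18 in Bell-B vs Bell-L, -0.0577 and 0.081 for Krt14 in Bell-L vs Cap-L (-0.0081 with no filter), and -0.0589 and 0.0393 for Krt5 in Cap-L+2D vs Cap-L (-0.0042 with all libraries). For Cap-W vs its parts they were -0.17 and 0.52 for Krt4 and -0.16 and 0.59 for Krt13. For Bell-W vs its parts they were -0.39 and 1.03 for Krt5, -1.24 and 0.97 for Krt13, -0.57 and 0.55 for Cdh1, -0.30 and 0.74 for Epcam, -0.0873 and 1.17 for Dsg3, -0.50 and 0.64 for Esrp1, -0.52 and 0.48 for Trp63, -0.28 and 0.71 for Grhl2 and -0.13 and 2.33 for Ly6d. Depth limits Cldn3, Krt4, Krt13 and Ly6d, and in Cap-B+2D also Krt19, Dsg3 and Ovol1, where libraries lie at or under 3 counts.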

Other observations

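Some epithelial genes outside the 37 rose in the cultured buccal part, where most of the 37 fell. They were chosen after their values were seen, and 34.5% of all genes were called between Cap-B and Cap-B+2D. The list of other epithelial identity genes, which holds Klf5, had a lower sum after culture, 178 to 182 CPM against 231 to 241 in Cap-B. The list of other junction genes, which holds Pkp2 and Marveld2, had a higher sum, 429 to 442 CPM against 359 to 360. Klf5, a transcription factor of epithelial and other proliferating cells, was at 9.42 ± 0.698 CPM (mean ± SD, n = 3) in Cap-B and 59.1 ± 0.997 in Cap-B+2D (2.63 ± 0.06, adjusted p = 3.22e-28). It also rose in the cultured lingual part, to 38.7 ± 1.99 CPM from 7.47 ± 0.776 (2.38 ± 0.08, adjusted p = 4.02e-19). Pkp2, a desmosomal plaque protein also known from heart muscle, was at 2.04 ± 0.380 CPM in Cap-B and 10.2 ± 0.872 in Cap-B+2D (2.30 ± 0.12, adjusted p = 1.48e-17). Marveld2, a tight junction protein, was at 1.81 ± 0.219 CPM in Cap-B and 6.40 ± 0.557 in Cap-B+2D (1.80 ± 0.13, adjusted p = 7.62e-14). Col17a1, a hemidesmosomal collagen, went the other way, from 33.5 ± 1.90 to 1.83 ± 0.0175 CPM (-4.21 ± 0.09, adjusted p = 4.6e-29). Plec, which links filaments to junctions in many tissues, muscle included, rose in culture on both sides, to 535 ± 17.5 CPM in Cap-L+2D (1.35 ± 0.06, adjusted p = 1.01e-16) and 457 ± 31.2 in Cap-B+2D (1.39 ± 0.04, adjusted p = 1.13e-24). The summed skeletal muscle markers rose in the same libraries, and their part in these values was not tested.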
